A study of Mus musculus with 15 samples.

Results

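Gene expression in the mouse heart at 12 h was set against that at 3 to 5 h in a time course of aldosterone, the adrenal steroid that acts through the mineralocorticoid receptor. The 12 h group held 1 aldosterone array and 1 control array. The reference times held 1 array of each arm at 3, 4 and 5 h, 6 arrays in all, so that the comparison used 8 of the 15 arrays of the series. Arrays were chosen by the time and arm in their titles, and arm entered every fit as a covariate. All measured total RNA of whole hearts from mice, and the other 7 arrays, at 0, 0.5, 1 and 2 h, were used for their levels only. The single control array at 0 h came from an uninjected heart. The labels describe the aldosterone hearts as injected. They give no dose, strain or age, do not say what the timed controls received, and do not give the clock time at which hearts were taken. It is also not stated if 1 animal or several gave the RNA of an array, so the spread behind the p-values is that of arrays and may be technical in part.

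The hours of a time course in mice are also hours of the day. Heart cells hold a circadian clock in which BMAL1, encoded by Arntl, pairs with CLOCK or NPAS2 and binds E-box sequences to drive the Per and Cry genes, whose products inhibit the pair. Nuclear receptors of the REV-ERB and ROR families act on Arntl through ROR elements, and the transcription factors DBP and TEF carry the rhythm to genes with D-box sequences. A second set of genes responds to corticosteroids, handling and injection within hours. It includes targets of the corticosteroid receptors, immediate early genes, cytokine-induced genes and chaperones.

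Promoter sequences of 4 genes described below, chosen because their windows hold a motif, are shown since the clock acts through short motifs near the start site. They are RefSeq windows of GRCm38.p6, from 250 bases before to 50 bases after an annotated start, given 5′ to 3′ on the strand of the gene. Capitals mark the E-box CACGTG in Ppp1r3c and Tef, the ROR half-site AGGTCA in Arntl and the D-box TTATGNAA in Per3. Arntl lies at chr7:113207261-113207560 on the plus strand, Ppp1r3c at chr19:36736555-36736854 on the minus strand, Tef at chr15:81802423-81802722 on the plus strand and Per3 at chr4:151044616-151044915 on the minus strand.
Arntl: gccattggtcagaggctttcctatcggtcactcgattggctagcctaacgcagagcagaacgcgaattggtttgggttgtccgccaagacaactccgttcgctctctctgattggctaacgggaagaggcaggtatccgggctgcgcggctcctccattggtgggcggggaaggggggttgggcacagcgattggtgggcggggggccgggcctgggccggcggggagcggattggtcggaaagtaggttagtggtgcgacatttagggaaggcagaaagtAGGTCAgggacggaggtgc
Ppp1r3c: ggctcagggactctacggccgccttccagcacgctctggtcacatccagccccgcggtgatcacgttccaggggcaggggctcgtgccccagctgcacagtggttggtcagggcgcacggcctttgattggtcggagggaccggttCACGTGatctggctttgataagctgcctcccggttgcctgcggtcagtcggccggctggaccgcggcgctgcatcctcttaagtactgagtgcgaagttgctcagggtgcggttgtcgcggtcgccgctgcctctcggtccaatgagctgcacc
Tef: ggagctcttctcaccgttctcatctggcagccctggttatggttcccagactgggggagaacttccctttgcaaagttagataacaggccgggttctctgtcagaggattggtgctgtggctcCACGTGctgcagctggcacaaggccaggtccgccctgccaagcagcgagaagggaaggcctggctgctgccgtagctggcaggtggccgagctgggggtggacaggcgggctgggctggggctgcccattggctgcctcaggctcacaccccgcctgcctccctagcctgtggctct
Per3: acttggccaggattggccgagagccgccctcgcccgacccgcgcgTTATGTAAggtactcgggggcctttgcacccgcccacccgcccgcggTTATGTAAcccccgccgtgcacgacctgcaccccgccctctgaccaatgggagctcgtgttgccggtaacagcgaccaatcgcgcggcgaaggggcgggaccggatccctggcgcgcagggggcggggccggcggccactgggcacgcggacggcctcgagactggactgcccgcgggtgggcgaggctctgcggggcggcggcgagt

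Searched on both strands, the E-box was held by 7.15% of all 32851 promoter windows, the ROR half-site by 16.3% and the D-box by 3.38%. In Arntl the half-site began 32 bases after the start, and the other of its 2 windows held none. In Ppp1r3c the E-box began 104 bases before the start, and in Tef 127 bases before it. Per3 held 2 D-boxes, beginning 205 and 158 bases before the start. The windows of Npas2 (1), Dbp (1), Epdr1 (1), Ints14 (2) and Cdkn1a (2) held none of these 3 motifs. Of the 13 tested core clock genes with an entry, 4 held an E-box, 4 a ROR half-site and 2 a D-box. Of the 16 tested clock output genes with an entry, 5 held an E-box, 3 a ROR half-site and 0 a D-box. A gene was counted if any of its windows held the motif, while the percentages above are of single windows.

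Values below are the deposited signals, which had been scaled to the same trimmed mean of 1500 on every array. Differences are 12 h minus 3 to 5 h on a log2 scale after adding 167.8 to each signal and quantile normalization, so that folds of low genes are understated. A gene was called at a Benjamini-Hochberg adjusted p under 0.05 in limma over all 22256 probe sets tested, and gene lists were counted on a single probe set for each gene, that of highest mean signal. Whether both 12 h arrays lay above or below all 6 others was judged on the normalized scale.

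RNA quality differed between the arrays compared. The log2 ratio of 3′ over 5′ signal of the Gapdh control probe sets, which grows as RNA is degraded or copied incompletely, was 2.50 on the aldosterone array and 3.92 on the control array at 12 h. At 4 h it was 2.17 with aldosterone and 3.21 in the control, at 3 h -0.14 and 0.52, and at 5 h 1.28 and 0.47. The 4 h pair therefore resembled the 12 h pair in this ratio, and both pairs were scanned on the same day, while the 3 h and 5 h pairs were scanned on 2 other days. The 12 h pair was run on station 2 and the 4 h pair on station 1. The 3 h pair was of a different chip lot from the other pairs compared. Markers of atrial heart muscle also varied. Their 9 tested genes had summed signals of 403648 with aldosterone and 439676 in the control at 12 h, against 81482 to 501693 at 3 to 5 h, with the lowest and the highest of the 6 on aldosterone arrays at 5 h and 4 h. Ventricular muscle markers were abundant on every array, the 11 tested genes summing to 2796689 and 2965656 at 12 h and to between 1804710 and 2485161 at 3 to 5 h. Both 12 h sums were thus above all 6 on the deposited scale, while after quantile normalization the list's median difference was 0.01. In whole tissue, fewer cells of a type and less RNA per cell cannot be told apart.

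**Figure D1:**
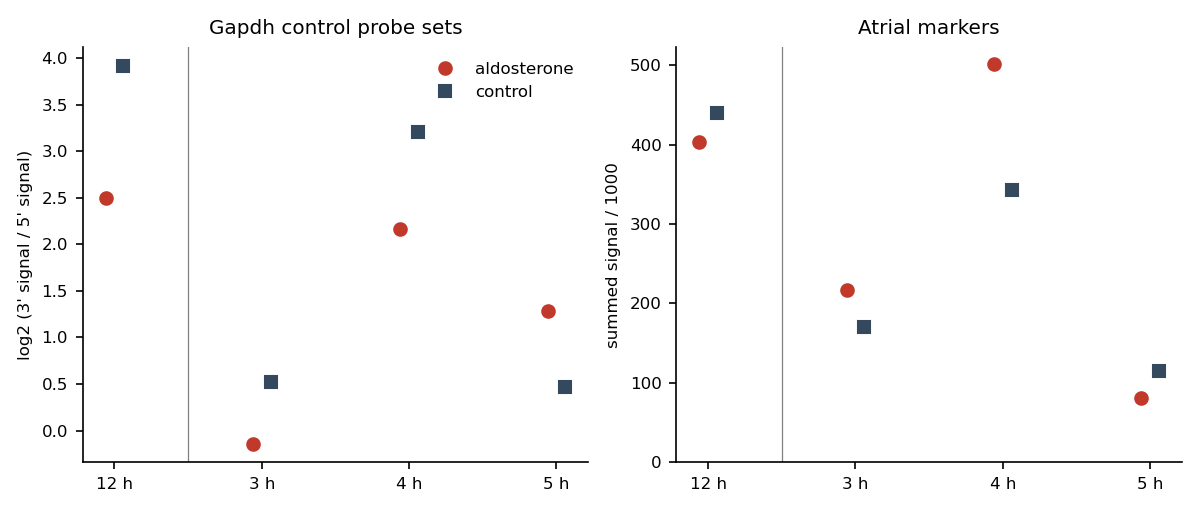
Log2 ratio of 3′ over 5′ signal of the Gapdh control probe sets (left) and summed signal of 9 atrial marker genes divided by 1000 (right) on the 8 arrays, 1 point per array, with 12 h to the left of the line. The Gapdh ratio was 2.50 and 3.92 at 12 h and 2.17 and 3.21 at 4 h, against -0.14 to 1.28 at 3 and 5 h.

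Across all genes, 4 probe sets were called at 12 h against 3 to 5 h, all of them lower at 12 h (0.0180% of those tested). At an unadjusted p under 0.05 there were 2223, of which 911 were higher and 1312 lower, and the median SE of a difference was 0.22. Counted on 1 probe set for each of 11566 genes, 4.63% were higher and 4.52% lower at an unadjusted p under 0.05. Both 12 h arrays lay above all 6 others for 7.87% of these genes and below all 6 for 5.07%. The count of calls hung on single arrays. It was 0 without the aldosterone array at 12 h, 0 without the control array at 12 h and 0 without the 5 h pair, and between 1 and 3 without any other single array. Without the 4 h pair it was 141, of which 128 were lower and 4 were the calls on 8 arrays. The median difference of those 128 was -1.48 without the 4 h pair and -0.41 for 12 h against 4 h alone, and a fit of the same 6 arrays with the Gapdh ratio added called none of the 22256, against 1051 at an unadjusted p under 0.05. On those 6 arrays the ratio was 2.50 and 3.92 at 12 h and -0.14 to 1.28 at 3 and 5 h. It thus went largely with time, and that fit could hardly separate the effects of ratio and time.

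Arntl, the gene of BMAL1, was the clock gene among the 4 calls. Its signal was 736 with aldosterone and 580 in the control at 12 h. At 3, 4 and 5 h it was 2159, 3059 and 2441 with aldosterone and 1992, 2811 and 2338 in the control. Both 12 h arrays lay far below all 6, and Arntl fell by 1.64 ± 0.20 on the log2 scale (SE, n = 2 against 6 arrays; limma adjusted p = 0.0472), or 3.12-fold. From 0 to 2 h the 7 arrays held between 2361 and 3173, so that 12 h was also below every earlier array. A second Arntl probe set, annotated to the same gene, had a difference of 0.43 ± 0.28 with overlapping groups.

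Ppp1r3c encodes a subunit that brings protein phosphatase 1 to glycogen and promotes glycogen synthesis. It had 21430 with aldosterone and 19141 in the control at 12 h. At 3, 4 and 5 h it had 31602, 41869 and 44545 with aldosterone and 32465, 38479 and 34532 in the control. It fell by 0.89 ± 0.11, or 1.85-fold (limma adjusted p = 0.0472), and by the same 0.89 in each arm. Its second probe set had a difference of -2.23 ± 0.62, with both 12 h arrays again below all 6. The uninjected heart had 23216 and the 0.5 h hearts 26998 with aldosterone and 25218 in the control, closer to 12 h than the arrays at 3 to 5 h were.

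Like that of Arntl, the other 2 calls rested on 1 of several probe sets. Ints14, a subunit of the Integrator complex that processes small nuclear RNAs, had 305 with aldosterone and 239 in the control at 12 h, against 2379 to 5237 at 3 to 5 h. It fell by 3.01 ± 0.28 (limma adjusted p = 0.0072), while its other tested probe set had 0.10 ± 0.17. The same Ints14 probe set had 254 on the control array at 0.5 h, a level otherwise seen at 12 h alone. Epdr1, an ependymin-related gene, had 316 and 271 at 12 h, against 1096 to 1804 at 3 to 5 h, and fell by 1.70 ± 0.22 (limma adjusted p = 0.0472). Its other probe sets had differences of 0.29 and -0.04. With scan day as a block, which leaves the 4 h pair alone to compare with 12 h, 3 genes were called. Epdr1 was not among them (-1.54, limma adjusted p = 0.212).

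Genes next in order of p did not pass. Cdkn1a encodes the cell cycle inhibitor p21 and is induced by corticosteroids and by p53. It had 2875 with aldosterone and 2975 in the control at 12 h, against 5911, 8137 and 7642 with aldosterone and 8673, 7606 and 5853 in the control at 3, 4 and 5 h. The 12 h levels were alike in both arms and below all 6, with a difference of -1.21 ± 0.17 (limma adjusted p = 0.0668). At 0 and 0.5 h Cdkn1a had 2252 in the uninjected heart, 3905 with aldosterone and 3738 in the control. The other 5 genes on the lower side were Thra (-1.80), the thyroid hormone receptor alpha, Tmem82 (-1.76), the cap methyltransferase Cmtr1 (-2.00), the mitochondrial nucleotide kinase Cmpk2 (-2.28) and the decapping scavenger enzyme Dcps (-1.93). Each had both 12 h arrays below all 6, with limma adjusted p between 0.0568 and 0.131. Other probe sets of Thra (0.33 and 0.00), of Cmtr1 (between 0.04 and 0.47) and of Cmpk2 (-0.36) had smaller differences or the opposite sign, with overlapping groups.

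No gene was called higher at 12 h. The 10 with the smallest p on that side all had both 12 h arrays above all 6. The largest difference among them was that of Nudt16, a decapping enzyme of nuclear RNA, with 1.37 ± 0.29, and the second that of the palmitoyltransferase Zdhhc14 with 0.99 ± 0.18. Nedd4l, the ubiquitin ligase that removes epithelial sodium channels, had 1348 and 1865 at 12 h against 607 to 841, a difference of 0.97 ± 0.20. Its brightest probe set had 0.26 and another 0.03. Cxcl12, a chemokine of stromal and endothelial cells, had 13799 and 16143 against 7636 to 10013 (0.72 ± 0.14), and 0.38 on its second probe set. Mid1ip1, an activator of acetyl-CoA carboxylase in fat synthesis, had 46128 and 31869 against 14684 to 26190 (0.89 ± 0.18). The drug efflux pump gene Abcb1a had 0.89 and the steroid receptor coactivator Ncoa1 0.78. Apbb2 had 0.49, and its other probe sets -0.79 ± 0.28 and 0.18, with overlapping groups. For all 10, the limma adjusted p lay between 0.141 and 0.267.

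**Figure D2:**
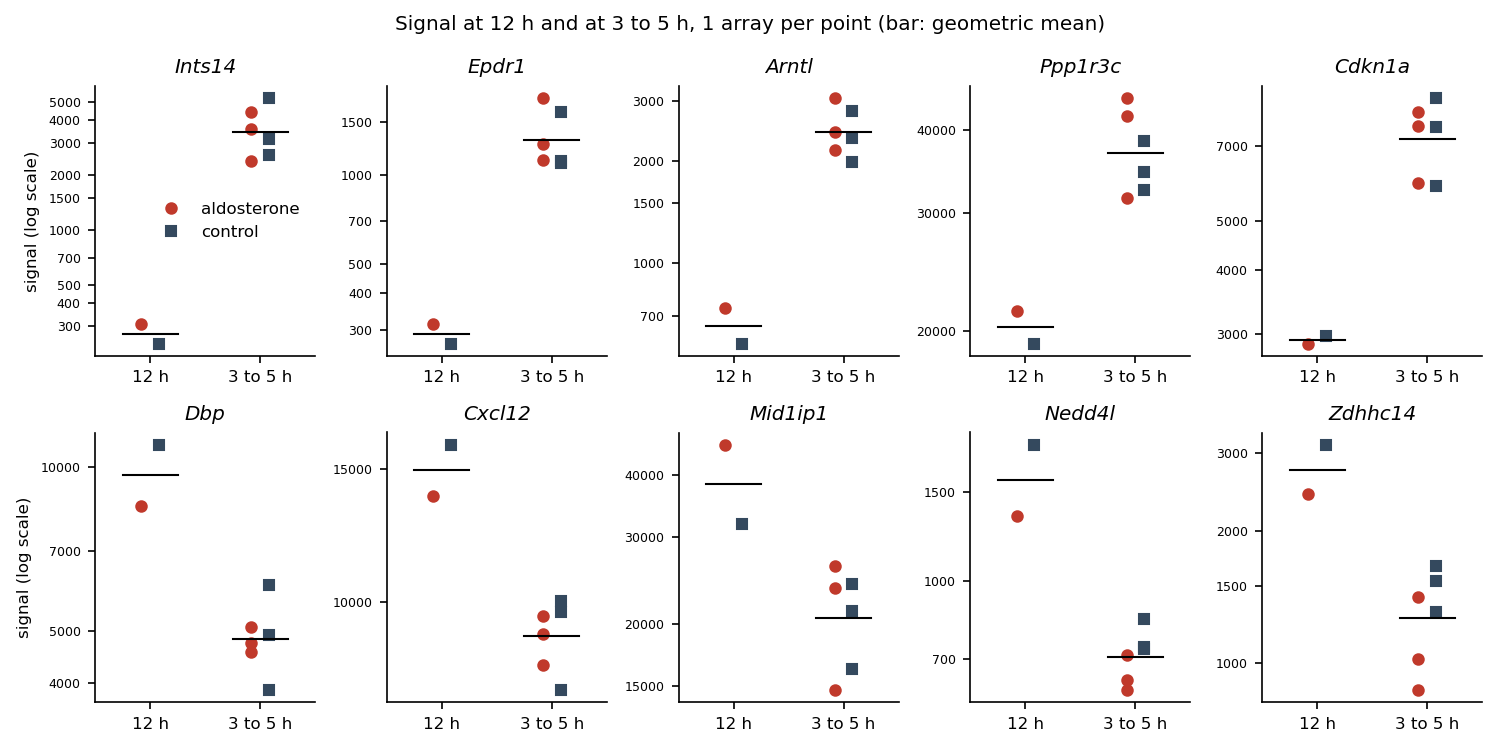
Deposited signal (log axis) of 10 genes at 12 h and at 3 to 5 h, 1 point per array, with a bar at the geometric mean. Both 12 h arrays lay outside the range of the 6 arrays at 3 to 5 h in every panel, and the top row holds the 4 called genes and Cdkn1a.

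Among 16 core clock genes tested, 1 was called, Arntl. Both 12 h arrays lay below all 6 for 4 genes and above all 6 for 2, beside 5.07% and 7.87% of all genes. On the activator side, Npas2, the partner of BMAL1 that can replace CLOCK, had 179 with aldosterone and 67 in the control at 12 h, against 702, 493 and 473 with aldosterone and 685, 632 and 739 in the control. Its difference was -1.49 ± 0.31 (limma adjusted p = 0.224). Clock had 1938 and 1637 at 12 h against 2013 to 2955 (-0.39 ± 0.16), and its 3 other probe sets had between -0.05 and 0.07. On the normalized scale Clock was only just below with aldosterone at 12 h, at 11.068 against a lowest of 11.071 at 3 to 5 h.

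On the side of the repressors, Per2 had 2467 with aldosterone and 2254 in the control at 12 h, against 1358 to 1815 at 3 to 5 h, a difference of 0.56 ± 0.16. A second Per2 probe set had 0.60 and also lay above all 6. Per3 had 1734 and 1892 at 12 h against 629 to 1176 on the probe set with the smallest p (0.90 ± 0.20), and 0.07 and 0.21 on the others, with overlapping groups. Cry2 had 0.47 ± 0.22 and Per1 -0.56 ± 0.29, with overlapping groups. Adding the Gapdh ratio to the fit gave 0.02 for Per1. Of the REV-ERB genes, Nr1d1 had 3608 and 3742 at 12 h against 4492 to 7514 (-0.62 ± 0.21), and Nr1d2 had 0.40 ± 0.15 on one probe set and -1.24 ± 0.69 on the other. The remaining core genes, Bhlhe40, Bhlhe41, Ciart, Cry1, Csnk1d, Csnk1e and Rora, lay between -0.53 (Bhlhe41) and 0.25 (Rora) on the probe sets counted, with overlapping groups. Other probe sets went beyond this. Csnk1d, a kinase that marks PER proteins for degradation, had -1.85 ± 0.40 and -0.41, both below all 6, 0.39 above all 6, and -0.28. One of the 7 other Rora probe sets, with 0.41, lay above all 6.

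Of 19 clock output genes, none was called, and 3 lay above all 6 arrays and 3 below, beside 7.87% and 5.07% of all genes. Dbp had 8472 with aldosterone and 10980 in the control at 12 h. At 3, 4 and 5 h it had 4750, 5073 and 4565 with aldosterone and 4901, 3884 and 6064 in the control. Both 12 h arrays were above all 6, with a difference of 0.95 ± 0.17 (limma adjusted p = 0.153), and the second probe set had 0.78 ± 0.27 with overlapping groups. Tef had 13561 and 12446 at 12 h against 7398 to 10170, a difference of 0.56 ± 0.14. Hlf, the third member of the DBP and TEF family, had 0.32 ± 0.21, and Nfil3, the repressor that binds the same D-box, -0.83 ± 0.38, both with overlapping groups. Usp2, a deubiquitinase under clock control, had 0.28 ± 0.13 and lay above all 6. The members below all 6 were the potassium channel subunit Kcnip2 (-0.34), the repressor Klf10 (-0.54) and Lonrf3 (-0.73). Klf10 had -0.71 in the aldosterone arm and -0.36 in the control arm, and Nfil3 -0.10 and -1.56. The remaining outputs, Kcnh2, Kcnk3, Kcnd2, Klf15, Klf9, Tspan4, Nampt, Pfkfb3, Herpud1, Wee1 and Tsc22d3, lay between -0.39 (Kcnk3) and 0.49 (Kcnh2) on the probe sets counted, with overlapping groups. Other probe sets of Kcnd2 (-0.73 ± 0.19) and Tsc22d3 (-0.98 ± 0.36) lay below all 6 and one of Nampt (0.40 ± 0.12) above.

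**Figure D3:**
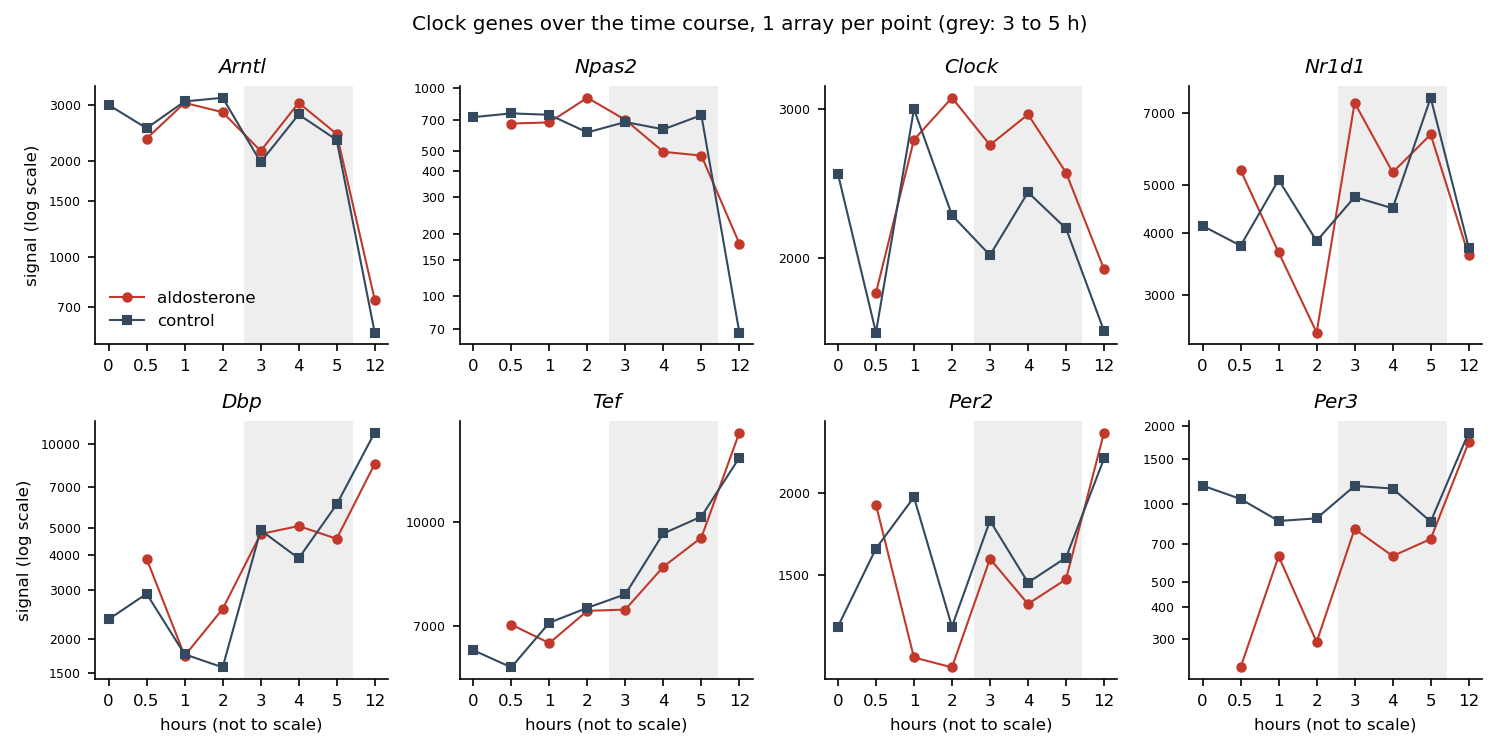
Deposited signal (log axis) of 8 clock genes over 0, 0.5, 1, 2, 3, 4, 5 and 12 h, 1 array per point, with aldosterone arrays as circles, control arrays as squares and 3 to 5 h shaded. Arntl and Npas2 were low at 12 h in both arms (736 and 580, 179 and 67), and Dbp and Tef were at their highest there in both arms.

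Within 3 to 5 h these genes had no called trend. Over all 22256 probe sets the slope per hour gave 0 calls by limma, with 1328 at an unadjusted p under 0.05 (5.97%) and a smallest adjusted p of 0.703. Arntl had a slope of 0.11 per hour, Npas2 0.00, Dbp 0.04 and Tef 0.14. The smallest p values belonged to Cebpd, a transcription factor gene of the acute phase response (-0.95 per hour), Napb (-1.15) and the heat shock gene Hspa1b (-0.79). Cebpd had 9242, 6192 and 3460 with aldosterone and 13131, 7729 and 2440 in the control at 3, 4 and 5 h, and 3710 and 5660 at 12 h. It was thus lower at each later hour from 3 to 5 h in both arms, and its 12 h levels were within the range of the 6. On the other side, Mef2d, Nrarp, Pigt, Hspa4 and Psmb8 had slopes between 0.48 and 0.53 per hour, and none of these 5 differed at 12 h by more than 0.31 in size.

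The targets of the corticosteroid receptors held 34 tested genes. None was called. For 7 both 12 h arrays lay below all 6 and for 1 above, against 5.07% and 7.87% of all genes, and the median difference was -0.24, beside 0.04 over all genes. Zbtb16, which encodes the transcriptional repressor PLZF, had 19312 with aldosterone and 20762 in the control at 12 h, against 52187, 32745 and 50044 with aldosterone and 56505, 44858 and 36361 in the control at 3, 4 and 5 h. Its difference was -1.17 ± 0.23 (limma adjusted p = 0.165), and a second probe set, with -1.02, also lay below all 6. The uninjected heart had 9889 and the 0.5 h hearts 11327 with aldosterone and 11633 in the control, so that Zbtb16 at 12 h lay between its levels at 0.5 h and those at 3 to 5 h.

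Angptl4, an inhibitor of lipoprotein lipase, had 2039 and 1404 at 12 h against 3048 to 5099 (-1.15 ± 0.21). The stress kinase gene Map3k6 had 1148 and 1211 against 1531 to 2612 (-0.68 ± 0.19), and Cebpb, a transcription factor gene, 11507 and 12215 against 12253 to 22417 (-0.58 ± 0.17). Both arms were below the 6 for each of these 3. Classical targets differed between probe sets. Fkbp5, a co-chaperone of steroid receptors, had -0.10, Tsc22d3 -0.04 and Klf9 0.02, and the sodium-retaining kinase gene Sgk1 had 0.33 ± 0.15, all with overlapping groups on the probe sets counted. The small Fkbp5 difference came from unlike arms. At 12 h its normalized log2 level was 13.223 with aldosterone, above all 6 arrays (12.654 to 12.949). In the control it was 12.189, below all 6. Another Tsc22d3 probe set had -0.98 ± 0.36 and lay below all 6, and another of Klf9 had -1.03 ± 0.54 with overlapping groups. The list's median was -0.33 in a fit that included the Gapdh ratio, and -0.24, -0.30 and -0.06 for 12 h against 3, 4 and 5 h.

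The receptors showed the opposite sign on their main probe sets. Nr3c2, the mineralocorticoid receptor gene, had 2029 with aldosterone and 1678 in the control at 12 h, against 936 to 1532 at 3 to 5 h, a difference of 0.57 ± 0.19. Nr3c1, the glucocorticoid receptor gene, had 13484 and 14599 against 8526 to 13195, a difference of 0.54 ± 0.16. Other Nr3c1 probe sets had 0.47 and -1.12, each outside the range of the 6 arrays but in opposite directions, and -0.08. The list of renin-angiotensin, endothelin and adrenergic genes, which holds both receptors, had 13 tested members, 4 above all 6 arrays and none below, beside 7.87% and 5.07% of all genes. The other 2 above were Adm, the vasodilator adrenomedullin (0.58), and Hsd11b1 (0.32), the enzyme that regenerates active glucocorticoid.

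Immediate early genes, which respond to stimuli within minutes, had the lowest median of the 24 pathway lists, -0.37 over 27 tested genes. None was called, and 4 lay below all 6 arrays and none above, beside 5.07% and 7.87% of all genes. Fos had 1003 with aldosterone and 899 in the control at 12 h, against 1630, 1972 and 1323 with aldosterone and 2637, 1799 and 2182 in the control, a difference of -0.86 ± 0.21. Dusp1, Dusp6 and Ier2 were the other 3 below all 6, with -0.32, -0.51 and -0.45. Without 1 of the 12 h arrays the first pair moved widely, Dusp6 having -0.88 in the aldosterone arm and -0.15 in the control arm, and Dusp1 -0.17 and -0.47. Each had a 12 h array only just below the 6. Dusp1 had a normalized log2 level of 13.961 with aldosterone against a lowest of 13.966. Dusp6 had 11.192 in the control against 11.217. Maff (-1.01) and Nr4a2 (-1.01) had unlike values in the arms at 12 h. Maff had 238 with aldosterone and 938 in the control at 12 h, and Nr4a2 1041 with aldosterone and 172 in the control, so that in each 1 of the 12 h arrays lay within the range of the 6. The difference between the arms was not called for Maff (limma adjusted p = 0.773) or Nr4a2 (limma adjusted p = 0.545). The list's median was -0.22, -0.28 and -0.32 against 3, 4 and 5 h, and -0.24 in the aldosterone arm and -0.13 in the control arm. Its rank as the lowest did not hold throughout. In the control arm the cytokine list had -0.45. With the Gapdh ratio in the fit the immediate early median was -0.27 and that of the corticosteroid receptor targets -0.33.

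Cytokine, adhesion and NF-kB genes had a median of -0.31 over 24 genes, with 6 below all 6 arrays and 1, Cxcl12, above, beside 5.07% and 7.87% of all genes. Against 3, 4 and 5 h alone the median was -0.39, -0.23 and -0.13. At 12 h 21, 17 and 14 of the 24 genes were lower than at these times, beside 4658, 5978 and 5542 of all 11566 genes. Selp, the P-selectin by which endothelium and platelets hold leukocytes, had 374 with aldosterone and 525 in the control at 12 h, against 2659, 3497 and 1189 with aldosterone and 4858, 1619 and 1391 in the control. Selp was also low on the 5 arrays at 0, 0.5 and 1 h, between 81 and 622, and had 4286 and 4263 at 2 h. Its difference of -1.98 ± 0.43 was not called (limma adjusted p = 0.247). Bcl3 (-1.81) and Tnfaip3 (-1.20), both feedback regulators of NF-kB, the receptor gene Il4ra (-1.16) and the adhesion genes Icam1 (-0.93) and Vcam1 (-0.79) were the others below. Icam1 and Vcam1 were only just below in the control at 12 h. Their normalized log2 levels there were 11.300 and 11.414, against lowest values of 11.329 and 11.417 at 3 to 5 h. Both genes were highest on the control array at 3 h (13.33 and 13.35). Bcl3 had 71 with aldosterone and 416 in the control at 12 h, and Tnfaip3 191 and 974, and the difference between the arms was not called for either. In the aldosterone and control arms alone Bcl3 had -2.47 and -1.14, Tnfaip3 -1.94 and -0.45 and Il4ra -0.71 and -1.62. The second Tnfaip3 probe set had -0.01 ± 0.46, with overlapping groups. Neutrophil markers, a cell type that could carry such transcripts, had summed signals of 10431 and 10393 at 12 h and of 9752 to 14161 at 3 to 5 h over 8 tested genes. Lcn2, also an acute phase gene, made up 5460 and 3604 of these sums at 12 h and 2094 to 4353 at 3 to 5 h. Without Lcn2 the sums were 4972 and 6790 at 12 h and 6313 to 10182 at 3 to 5 h, the aldosterone array at 12 h being the lowest of the 8. Mmp8 was the 1 marker of these 8 below all 6 arrays, with 116 and 330 against 671 to 1415 (-1.65 ± 0.28). S100a8 (-0.83), S100a9 (-0.65), Mmp9 (-0.28) and Mpo (-0.15) had negative differences with overlapping groups, and Lcn2 (0.47), Ltf (0.47) and Ngp (0.29) positive ones. The sums for macrophages were 81654 and 95160 against 60248 to 91969 over 14 genes. The part of leukocytes in the cytokine list was not tested.

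**Figure D4:**
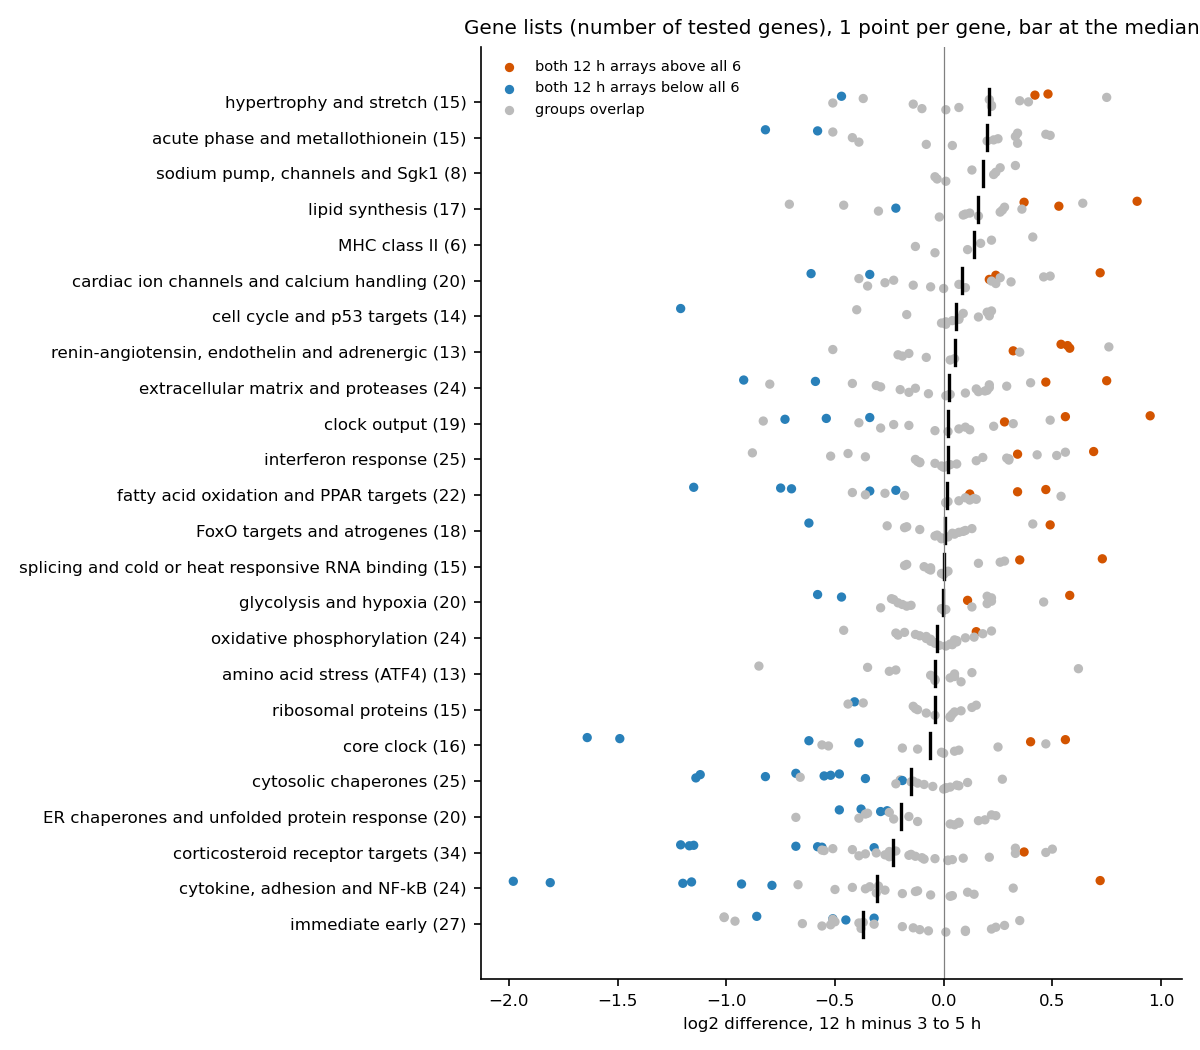
Log2 difference at 12 h minus 3 to 5 h for each tested gene of 24 pathway lists, 1 point per gene, with a bar at the list's median. Orange points had both 12 h arrays above all 6 arrays at 3 to 5 h and blue points both below. The lowest medians were those of the immediate early (-0.37), cytokine (-0.31) and corticosteroid target (-0.24) lists.

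Cytosolic chaperones, which fold proteins and are induced by heat and proteotoxic stress, had 9 genes counted at an unadjusted p under 0.05 on the lower side and none on the higher, beside 4.52% and 4.63% of all genes. None was called, and the median of the 25 tested was -0.15. Below all 6 arrays lay 9, and none lay above, beside 5.07% and 7.87% of all genes. Dnaja1, an Hsp40 co-chaperone, had 7500 with aldosterone and 5771 in the control at 12 h. At 3, 4 and 5 h it had 10197, 11490 and 10869 with aldosterone and 11085, 10655 and 10583 in the control. Its groups were well apart, with a difference of -0.68 ± 0.13 (limma adjusted p = 0.164), and its other probe sets had -0.67 and -0.37.

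Hspa8, the constitutive Hsp70, had 75507 and 55365 at 12 h against 75533 to 98217 (-0.48 ± 0.11). Its aldosterone array thus lay just under the lowest of the 6 on the deposited scale. After quantile normalization that array had 16.083 against a lowest of 16.269. The Hspa8 difference was -0.27 in the aldosterone arm and -0.69 in the control arm. The inducible pair Hspa1a (-1.12) and Hspa1b (-1.14), near-identical copies whose probe sets may not tell them apart, had 655 and 462, and 1208 and 1198, at 12 h. Over 3, 4 and 5 h Hspa1a had 2236, 1800 and 1076 with aldosterone and 2047, 1002 and 722 in the control, so that both arms were lower with each hour before 12 h. Stip1 (-0.82), Bag3 (-0.55), Hsph1 (-0.52), Chordc1 (-0.36) and Dnajb1 (-0.19) were the others below all 6. The small heat shock protein gene Cryab (0.01), the mitochondrial chaperonins Hspd1 (0.03) and Hspe1 (0.27), and the cytosolic chaperonin subunits Cct2 (0.11) and Cct3 (0.00) overlapped.

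The chaperone values were also set against each time alone. Of the 25 genes, 16 were lower at 12 h than at 3 h, 20 than at 4 h and 18 than at 5 h, and the medians were -0.13, -0.18 and -0.22. Over all 11566 genes these counts were 4658, 5978 and 5542, and the medians 0.09, -0.01 and 0.01. In a fit that included the Gapdh ratio the list's median was -0.15. Over all 57 tested probe sets of these genes, 16 lay below all 6 arrays and none above. Among the 19058 tested probe sets of all genes, 1152 lay below and 1278 above. The letters GAANNTTC, an inverted pair of the heat shock factor's recognition unit, were in the promoter windows of 11 of 21 tested chaperone genes with an entry and in 7.86% of all windows. A gene was counted if any of its windows held the letters, so the count of genes and the share of windows have unlike units. Those 11 genes included Bag3, Dnaja1, Hspa1a, Hspa1b and Hsph1, and also Hspd1 and Hspe1, whose groups overlapped. Chaperones of the endoplasmic reticulum had a median of -0.19 over 20 genes, with 4 below all 6 and none above, beside 5.07% and 7.87% of all genes. They included the BiP gene Hspa5 (-0.38), Manf (-0.48) and Calr (-0.26). Hspa5 had -0.56 in the aldosterone arm and -0.20 in the control arm, and Manf -0.74 and -0.22.

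**Figure D5:**
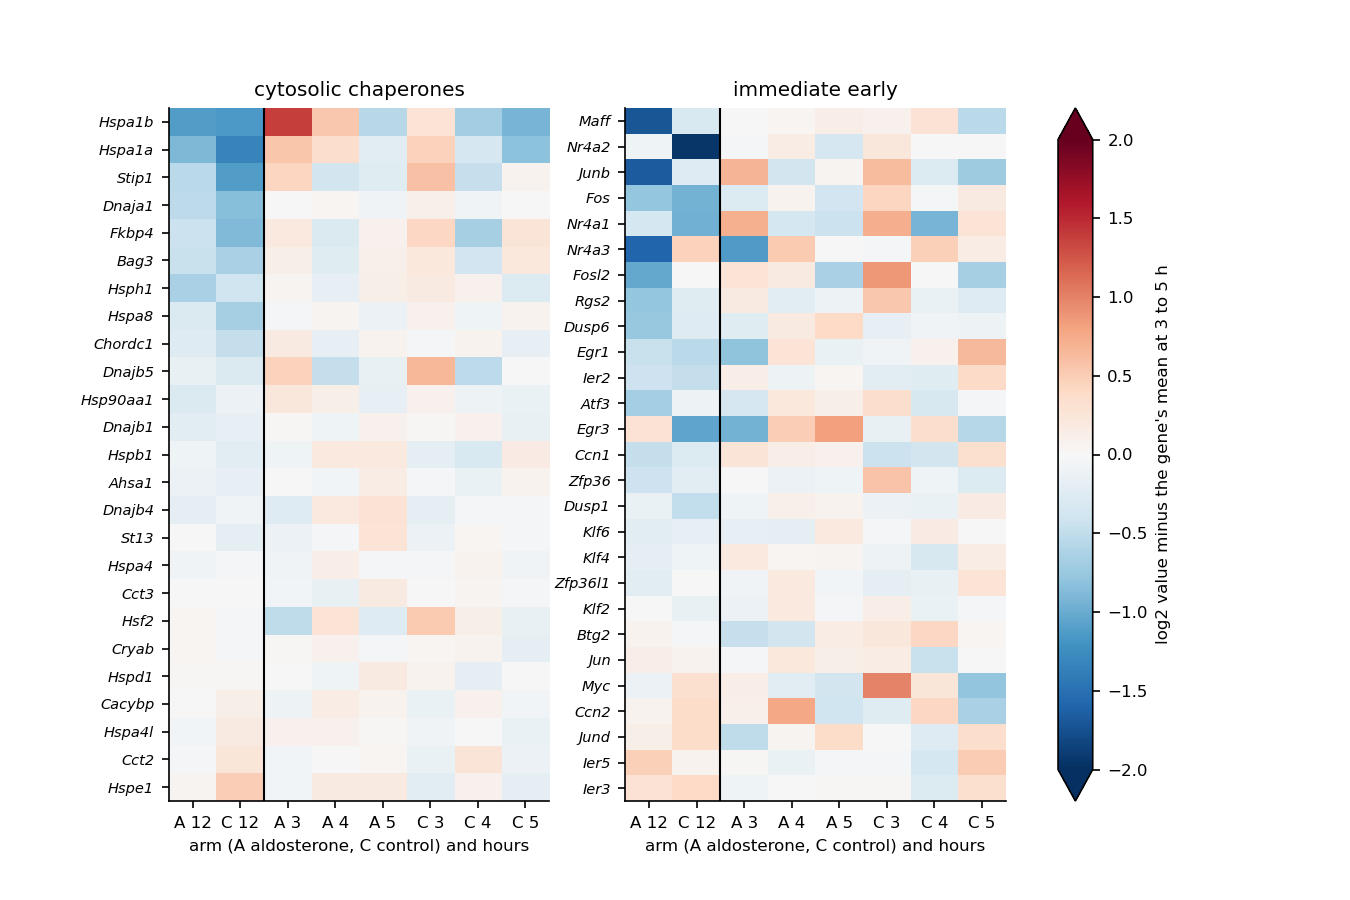
Log2 value minus the gene's mean over the 6 arrays at 3 to 5 h, for 25 cytosolic chaperone and 27 immediate early genes on 8 arrays, with the 12 h arrays left of the line. Colours run from -2 to 2, blue being lower. Stip1, Dnaja1, Bag3 and Hsph1 were blue on both 12 h arrays, while Maff and Nr4a2 were dark blue on 1 of them.

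Metabolic genes differed in both directions, and none was called. Fatty acid oxidation and its regulators held 22 genes, with a median of 0.01. Of these, 4 lay above all 6 arrays and 5, among them Fabp3, below, beside 7.87% and 5.07% of all genes. Ppargc1a, the coactivator of mitochondrial biogenesis, had 9063 with aldosterone and 11638 in the control at 12 h against 13968 to 24942 (-0.75 ± 0.21), and the uncoupling protein gene Ucp3 had -0.70, with -0.44 in the aldosterone arm and -0.96 in the control arm. Acot1, a thioesterase, had 0.47 and lay above. Fabp3, the abundant fatty acid binding protein of heart muscle, had 303420 and 288799 at 12 h against 219804 to 295169. Its difference was -0.22 after quantile normalization and 0.23 on the deposited scaling, so that its direction was set by the scaling. Lipid synthesis genes (17 genes, median 0.16) held 3 above all 6 and 1 below, beside 7.87% and 5.07% of all genes. The 3 above were Mid1ip1, the acyltransferase gene Gpam (0.37) and Idi1 (0.53). The second Gpam probe set had -1.05 ± 0.75, with overlapping groups. The list's median was 0.37 against 3 h, -0.13 against 4 h and 0.38 against 5 h. Fat cells also make these transcripts. The 7 tested fat markers had summed signals of 401843 with aldosterone and 449177 in the control at 12 h, against 270939 to 373854 at 3 to 5 h. Lpl and Fabp4, which are also on the fatty acid and endothelial lists, dominated these sums. Their normalized log2 levels at 12 h were 17.8 and 17.9 for Lpl and 16.5 and 16.9 for Fabp4. After quantile normalization the median difference of the fat markers was 0.12. Carbonic anhydrase 3 (Car3) had normalized log2 levels of 13.91 and 14.20 at 12 h against 8.78 to 14.64 (1.98 ± 1.13), and the adipokine gene Adipoq 1.15 ± 0.70, both with overlapping groups. Car3, Adipoq and the fat marker Retn were each highest on the aldosterone array at 4 h. The part of fat in the lipid synthesis genes was not tested.

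Among ion channels and matrix genes, Kcnj5, a subunit of the acetylcholine-gated potassium channel, had 5225 and 4060 at 12 h against 2268 to 3338 (0.72 ± 0.20), with 0.97 in the aldosterone arm and 0.47 in the control arm. The voltage-gated potassium channel gene Kcna5 had 2414 and 2369 against 3044 to 4963 (-0.61 ± 0.21). Serpinh1, the collagen chaperone HSP47, had 12510 and 9636 against 16291 to 26133 (-0.92 ± 0.16; limma adjusted p = 0.131), and its second probe set, with -0.64, also lay below all 6. The protease gene Mmp3 (0.75) and its inhibitor Timp1 (0.47) lay above all 6, and Adamts9 (-0.59) below. Other Adamts9 probe sets had -0.38 and -0.39 with overlapping groups. Of 24 matrix genes 2 lay above all 6 and 2 below, and of 20 ion channel genes 3 and 2. Of 15 hypertrophy genes these counts were 2 and 1, and of 15 splicing genes 2 and 0. Over all genes the shares were 7.87% above and 5.07% below. In the hypertrophy list Mef2c (0.48, and between -0.32 and 0.15 with overlapping groups on 4 other probe sets) and Fhl1 (0.42) lay above and the calcineurin regulator Rcan1 (-0.47) below, and the splicing factor gene Srsf5 had 21206 and 22299 against 10186 to 17014 (0.73 ± 0.17). Lists with medians between -0.04 and 0.02 were ribosomal proteins, oxidative phosphorylation, the ATF4 response, glycolysis, FoxO targets, splicing and interferon genes. The interferon median of 0.02 was 0.38 in the aldosterone arm and -0.30 in the control arm, a difference that was not tested for the list. Those of the hypertrophy, acute phase, sodium pump and MHC class II lists were 0.21, 0.20, 0.18 and 0.14, and those of the ion channel, cell cycle and matrix lists 0.08, 0.05 and 0.03. Against 4 h alone the hypertrophy, acute phase, sodium pump and MHC class II medians were -0.03, 0.02, 0.1 and -0.19. With the Gapdh ratio in the fit they were -0.06, -0.08, 0.09 and -0.18. Of 15 acute phase genes 0 lay above all 6 arrays and 2, Osmr (-0.82) and Cebpb (-0.58), below.

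The last comparison asked whether the 2 arms differed in their change from 3 to 5 h to 12 h. By limma 0 of 22256 probe sets were called for that difference, with 1230 at an unadjusted p under 0.05 (5.53%), a smallest adjusted p of 0.527 and a median SE of 0.44. With 1 array per arm at 12 h, the spread in this test came from 3 to 5 h alone. Arntl differed by -1.52 in the aldosterone arm and -1.76 in the control arm, Cdkn1a by -1.21 in both, Dbp by 0.79 and 1.12, and Zbtb16 by -1.23 and -1.12. Those with the smallest p were genes in which 1 of the 12 h arrays stood apart. Uck2, a uridine kinase, had 455 with aldosterone and 3041 in the control at 12 h, and Fahd2a had 2479 with aldosterone and 465 in the control. Their 6 arrays at 3 to 5 h held 1953 to 3128 and 2253 to 2835.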

How the data were processed

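Total RNA of whole mouse hearts was frozen in liquid nitrogen, extracted with Trizol and measured as biotinylated cRNA on Affymetrix arrays, per the labels' protocols. The authors deposited linear signal intensity per probe set from GCOS 1.2, per the submitters' processing notes, with 1 value for each of 45101 probe sets per array. Array experiment files, deposited with the samples, gave scan days, stations and chip lots. Whether hearts were pooled is not given in the sources used here. The number of arrays limits the precision.

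Signals were put on the log2(signal + 167.8) scale, 167.8 being the 25th percentile of all deposited values, and quantile normalized. Probe sets whose mean signal reached 526.7, the median of all values, were tested (22256), leaving out 64 control probe sets. Symbols came from the platform annotation, updated through RefSeq: 34958 probe sets had 1 symbol, 932 several and 9211 none, and 632 of 698 pairs of gene and list were matched. No genome was used.

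Limma 3.58.1 in R 4.3.3 (data.table, version 1.17.8) fitted 12 h against 3 to 5 h with arm as a covariate, the difference between the arms, and the slope over 3 to 5 h, with a variance trend and Benjamini-Hochberg adjustment over all probe sets tested. Both arrays of each time were scanned on 1 day, which the SE does not include. An exact permutation of 2 against 6 arrays cannot go below a two-sided p of 0.0714, so that none is given. Genes were named by rule: the called ones, filled to 10 per direction by the smallest p, 5 or fewer members from each list by their moderated t, every clock gene, and 5 per direction for the slope and for the arms. Those named outside it were chosen after their values were seen. The lists and comparisons were chosen with earlier results of these data known. Steps were tested on simulated data, and figures drawn with matplotlib 3.10.9 in Python 3.11.15.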

Additional observations from a re-analysis of the deposited data

Results flagged for a closer look

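Of 27 values checked for a single array standing apart among the 6 arrays at 3 to 5 h, 1 was marked. Nedd4l had a log2 value of 9.56 on the aldosterone array at 3 h, against 9.83 to 9.95 on the other 5 arrays. Its gap to the nearest of them, divided by the range of the 6, was 0.673. Chance marks about 1 in 20 groups of this kind. Both 12 h arrays lay above all 6 arrays with or without it.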

How the results depend on the processing

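The number of probe sets called at 12 h against 3 to 5 h was 4. It was 2 with the deposited scaling, 1 without a filter, 0 without a variance trend, 2 with the Gapdh ratio added to the fit, 1 with time as a random block, 0 with the arms averaged per time and 1 with array weights. Against 5 h alone, with the spread taken from 14 arrays, it was 16, of which 12 were higher. Blocking on scan day, which leaves the 4 h pair alone to compare with 12 h, gave 3 calls, without Epdr1. The stricter filter and the fit on 14 arrays also gave 3 each. Leaving out 1 array or 1 time gave between 0 and 141 calls, and the cause was not tested. A setting chosen after seeing the data, without the 4 h pair and with the Gapdh ratio added, gave 0. With the deposited scaling 2 of the 4 were called, and with the smaller pseudocount all 4. The difference between the arms and the slope had 0 calls under every alternative run. Of 80 genes checked under 24 settings, 70 kept their direction wherever they were tested. In the planned settings 2 reversed. Per1 had 0.02 with the Gapdh ratio added, and Fabp3 0.23 with the deposited scaling, and the cause was not tested. In the setting added after seeing the data, Per1 had 0.31, Nr1d2 -0.24, Nfil3 1.51, Usp2 -0.05, Nr4a2 0.99, Scd2 -0.01, Sgk1 -0.08, Oasl1 -0.15 and Bst2 -0.05, each opposite to its main sign. In that setting the Gapdh ratio went largely with time, so that their effects can hardly be told apart. Of probe sets at an unadjusted p under 0.05, 41% were higher and 59% lower, against 40.8% and 59.2% with the deposited scaling. The labels carry no replicate numbers, and the 2 arrays of a time can be paired only by that time. For 12 h against 3 to 5 h such pairs lie within the times compared, and the fits with time as a random block and with the arms averaged per time take them up. For the difference between the arms, a replicate block of time pairs, added after seeing the data, gave 0 calls by limma and 2119 at an unadjusted p under 0.05. Alternatives that leave out a 12 h array could not be run for the difference between the arms, since 1 arm would then hold none. Low signals limit the probe sets near the pseudocount of 167.8, where folds are understated.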
